A study of Drosophila melanogaster with 12 samples.

Results

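Very long genes, taken as protein-coding genes that span 50 kb or more in the Ensembl BDGP6 annotation, were examined for RNA Polymerase II (Pol II) in Kc167 cells. The rule used length and chromosome (2L, 2R, 3L, 3R, 4 and X) and no measured value. It selected 307 of 13945 protein-coding genes, with 53 on 2L, 58 on 2R, 63 on 3L, 63 on 3R, 69 on X and 1 on chromosome 4. Their lengths ran from 50.283 to 1965.857 kb, with a median of 74.968 kb, and together they covered 29.4 Mb. Just inside the limit were Sytbeta, with 50283 bp and no peak in any library, and ab, with 50403 bp and a peak in 4 libraries. Just outside were Octalpha2R, with 49945 bp and no peak, and NetA, with 49917 bp and a peak in all 6 libraries.

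Kc167 is a single female Drosophila melanogaster line of embryonic origin that the study describes as hemocyte cells. Cells were transfected with siAGO2 (AGO2 KD), a small interfering RNA against the Argonaute protein AGO2, with dsLaminB (LaminB KD), a double-stranded RNA against the nuclear lamina protein LaminB, or with neither RNA (mock), and were collected 3 days later. Each group had 2 replicate libraries of chromatin immunoprecipitation with sequencing (ChIP-seq) with an antibody to Pol II phosphorylated on Serine 5 (Pol II S5), each called against its own input. The 12 samples also include 6 inputs, which were not analysed here as separate files. The AGO2 comparison asks whether AGO2 affects Pol II on genes, and LaminB KD serves as a control for specificity.

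Pol II carries a long tail of repeats, and Serine 5 of these repeats is phosphorylated when transcription begins, so that Pol II S5 is typically densest near gene starts. In Drosophila many genes hold a paused polymerase just downstream of the start, and GAGA factor, which binds GAGAG, is known for keeping such starts open. Very long genes of flies are mostly intron, often have several starts far apart, and include many regulators of development and proteins of neurons. The data are lists of enriched stretches of the genome (peaks), 1 for each library. A gene start counted as occupied when a peak came within 250 bp of it, and covered share means the percentage of the gene's bases that lay within peaks. Starts no more than 500 bp apart were treated as 1 start group.

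The starts of 5 long genes are shown first, because they belong to highly covered members and, for contrast, to the most covered member without a peak at its start. Each run holds 250 bases before the start and 50 from the start on, 5′ to 3′ on the strand of the gene, read from the RefSeq Release 6 genome, which is dm6. Capitals mark 4 motifs, each searched on both strands. They are GAGAG, the binding motif of GAGA factor, and TATAAA, a form of the TATA box. The others are TATCGATA, the element bound by DREF, and TCAGT, the core of the initiator. On the opposite strand a motif reads as its reverse complement. The windows were chr3R:23346118-23346417 on the minus strand for pnt, chr2L:490585-490884 on the plus strand for ush, chrX:3719757-3720056 on the plus strand for Tlk, chr3L:7867320-7867619 on the minus strand for Pdp1 and chr3R:8577955-8578254 on the plus strand for 5-HT2B.
pnt: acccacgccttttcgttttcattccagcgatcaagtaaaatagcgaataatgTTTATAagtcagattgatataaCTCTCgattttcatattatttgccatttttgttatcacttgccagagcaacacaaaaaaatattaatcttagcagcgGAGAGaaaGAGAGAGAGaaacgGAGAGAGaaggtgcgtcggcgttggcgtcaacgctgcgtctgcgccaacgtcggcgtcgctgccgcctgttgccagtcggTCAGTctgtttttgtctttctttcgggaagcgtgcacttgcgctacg
ush: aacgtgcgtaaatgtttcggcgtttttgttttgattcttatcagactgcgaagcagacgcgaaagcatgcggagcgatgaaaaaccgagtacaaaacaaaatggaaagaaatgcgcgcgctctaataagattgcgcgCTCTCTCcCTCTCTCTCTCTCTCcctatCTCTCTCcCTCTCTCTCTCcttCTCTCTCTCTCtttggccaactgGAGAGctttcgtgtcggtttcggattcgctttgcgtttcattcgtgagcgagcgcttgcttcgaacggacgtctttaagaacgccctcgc
Tlk: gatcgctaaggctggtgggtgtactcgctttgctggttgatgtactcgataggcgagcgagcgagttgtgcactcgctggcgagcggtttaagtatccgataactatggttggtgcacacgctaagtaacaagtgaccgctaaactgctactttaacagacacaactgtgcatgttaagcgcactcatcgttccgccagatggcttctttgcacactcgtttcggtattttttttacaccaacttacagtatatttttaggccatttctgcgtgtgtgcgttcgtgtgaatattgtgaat
Pdp1: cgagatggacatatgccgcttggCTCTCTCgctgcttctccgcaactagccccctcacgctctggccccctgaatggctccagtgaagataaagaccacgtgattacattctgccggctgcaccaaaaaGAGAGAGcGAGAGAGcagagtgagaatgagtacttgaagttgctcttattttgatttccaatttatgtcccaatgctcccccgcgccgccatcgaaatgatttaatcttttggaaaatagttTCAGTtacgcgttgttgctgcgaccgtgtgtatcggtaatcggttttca
5-HT2B: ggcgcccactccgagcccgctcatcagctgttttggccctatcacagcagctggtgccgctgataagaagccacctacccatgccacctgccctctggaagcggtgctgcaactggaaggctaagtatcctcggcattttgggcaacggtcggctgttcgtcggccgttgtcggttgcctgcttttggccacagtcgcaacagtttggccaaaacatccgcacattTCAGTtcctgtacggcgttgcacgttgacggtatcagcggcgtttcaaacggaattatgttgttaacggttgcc
The ush window lies at the second of its 3 start groups, 14.615 kb downstream of the most upstream start, where a peak was found in all 6 libraries and where the noncoding gene lncRNA:CR46258 also starts. That window held 19 overlapping copies of GAGAG, the pnt window 7 and the Pdp1 window 6. None of the 4 motifs was in the Tlk window, and the 5-HT2B window held 1 TCAGT.

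Over the windows at the most upstream start, GAGAG was in 52.1% of the 307 long genes, against 34.1% of the 7121 shorter protein-coding genes of 2 kb to under 50 kb and 29.7% of all 13945 protein-coding genes. TATAAA was in 28.3% of the long genes, against 41.0% of the shorter genes. TATCGATA was in 3.91% of the long genes, against 10.9% of the shorter genes. TCAGT was in 59.0% of the long genes, against 51.0% of the shorter genes. Occupied and unoccupied long genes held GAGAG at like shares, 54.6% of the 108 with a peak at this start in all 6 libraries and 52.03% of the 148 with none. These shares are descriptions of letters in a window and were given no test.

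The peak lists differed in size between libraries. On these chromosomes they held 5532 and 6631 peaks after AGO2 KD, 8539 and 5108 after LaminB KD, and 6435 and 7162 in mock, each pair in the order of replicates 1 and 2, which is the order kept throughout. They covered 5.57 and 8.01 Mb after AGO2 KD, 14.6 and 4.19 Mb after LaminB KD, and 8.27 and 10.5 Mb in mock, so that LaminB KD held both the largest and the smallest list. Read depth is unknown from the lists, and each list was called by itself, so that the amount called in a library and the treatment of that library cannot be told apart. The targeted genes are not members. The covered share of AGO2 was 6.67% and 9.97% in AGO2 KD, against 7.20% and 7.39% in mock, and that of Lam, the gene of LaminB, was 82.5% and 23.5% in LaminB KD, against 72.5% and 77.4% in mock. Both overlap with mock, and peaks measure neither RNA nor protein, so they do not check the labels. In LaminB KD the covered share of AGO2 was 67.6% and 6.72%, and in AGO2 KD that of Lam was 50.8% and 77.5%.

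More than 1 in 2 of the long genes carried Pol II S5 at a start in every library, and about 1 in 5 had no peak anywhere. A start was occupied in 176 and 191 long genes in AGO2 KD, in 212 and 169 in LaminB KD, and in 191 and 200 in mock. As shares of the 307 genes these ran from 55.0% in LaminB KD replicate 2 (95% Wilson interval 49.5 to 60.5%) to 69.1% in LaminB KD replicate 1 (63.7 to 74.0%), and the intervals cover counting error only. In all 6 libraries 160 members (52.1%) had a start peak, against 47.3% of shorter genes. In 1 to 5 libraries 52 members had one, and in none 95. The commonest pattern among the 52 was a start peak missing only from LaminB KD replicate 2 (16 members), followed by one present only in LaminB KD replicate 1 (11 members), the smallest and the largest list. With peaks anywhere in the gene counted, 183 members had one in all 6 libraries, 61 in 1 to 5 and 63 (20.5%) in none, against 30.8% of shorter genes in none.

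Long genes had an occupied start more often than shorter genes when every annotated start was counted, and less often when only the most upstream start was. With any start counted, 57.3% and 62.2% of long genes in AGO2 KD, 69.1% and 55.0% in LaminB KD, and 62.2% and 65.1% in mock had a start peak. The shares of shorter genes were 54.4% and 57.9% after AGO2 KD, 64.8% and 48.2% after LaminB KD, and 59.4% and 61.4% in mock. Long genes were higher by 4.17 ± 1.45 points (SD, n = 6 libraries), and in 6 of 6 libraries (p = 0.03125 by an exact two-sided sign-flip permutation test). This is the smallest p that 6 libraries allow, and it speaks of libraries that map the same genes. The size of the difference depended on the settings. It was 1.43 points with peaks within 1500 bp of a start and 14.8 points at equal covered length. Long genes offered more starts, since 61.2% of them, against 26.1% of shorter genes, had 2 or more start groups, with means of 2.46 and 1.38.

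At the most upstream start alone, a comparison chosen after seeing the data, long genes had a peak in 40.1% and 45.3% after AGO2 KD, 51.5% and 38.1% after LaminB KD, and 45.6% and 47.9% in mock. Shorter genes had one in 50.7% and 54.3% after AGO2 KD, 61.4% and 44.6% after LaminB KD, and 56.0% and 58.0% in mock. The mean difference of -9.44 points was negative in 6 of 6 libraries (exact two-sided sign-flip permutation test, p = 0.03125). The sign of this comparison therefore depends on which starts are counted.

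**Figure D1:**
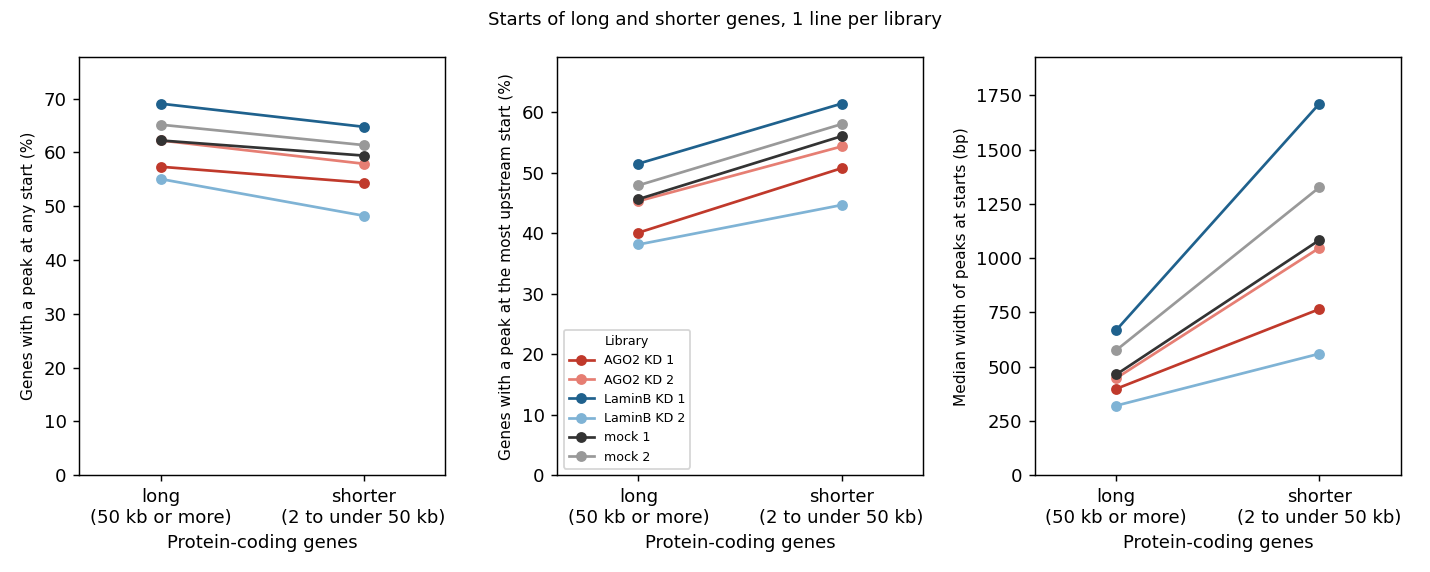
Share of genes with a peak at any annotated start (left, %), share with a peak at the most upstream start (middle, %) and median width of the peaks at starts (right, bp) for the 307 long and the 7121 shorter protein-coding genes. Each line joins the 2 values of 1 library; the lines fall to the right in the left panel and rise to the right in the other panels.

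Internal starts carried the occupancy of many long genes. Of the members with a start peak, 53 and 52 after AGO2 KD, 54 and 52 after LaminB KD, and 51 and 53 in mock had it only at a start farther downstream. This number was nearly the same in every library. Among members with 2 or more start groups, 130 and 137 after AGO2 KD, 148 and 122 after LaminB KD, and 134 and 140 in mock had an occupied start. Peaks at 2 or more of their groups were found in 53 and 55 of these in AGO2 KD, 73 and 47 in LaminB KD, and 59 and 62 in mock. Syp, an RNA-binding protein of the hnRNP family, SNF4Agamma, the gamma subunit of the AMP-activated kinase, and br, an ecdysone-induced zinc finger factor, had start peaks in all 6 libraries but none at the most upstream start in any.

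The peaks at starts of long genes were narrower than those of shorter genes in every library. Their median width was 398 and 447 bp after AGO2 KD, 668.5 and 320.5 bp after LaminB KD, and 464 and 576 bp in mock. At shorter genes it was 765 and 1047 bp after AGO2 KD, 1711.5 and 559.5 bp after LaminB KD, and 1083 and 1326 bp in mock. The mean difference was -603 ± 284 bp (SD, n = 6), negative in 6 of 6 libraries (exact two-sided sign-flip permutation test, p = 0.03125). The deposited fold of these peaks over background had medians of 4.81 and 4.42 after AGO2 KD, 4.55 and 3.51 after LaminB KD, and 4.49 and 4.37 in mock. Peaks at shorter genes had medians of 4.31 and 3.84 after AGO2 KD, 3.84 and 3.38 after LaminB KD, and 3.91 and 3.87 in mock, lower in every library than at long genes, a difference that was not tested. The peaks at shorter genes were also wider, and fold was not compared at equal width.

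Coverage of long genes fell away within the first steps from the start. In the first 5 kb from the most upstream start, the mean covered share over all 307 members was 3.24% and 4.42% after AGO2 KD, 7.69% and 2.40% after LaminB KD, and 4.55% and 5.89% in mock. From 5 to 10 kb it was 0.733% and 0.935% after AGO2 KD, 2.31% and 0.6999% after LaminB KD, and 1.06% and 1.29% in mock. From 10 to 15 kb it was 0.462% and 0.673% after AGO2 KD, 1.50% and 0.339% after LaminB KD, and 0.549% and 0.905% in mock. Each library had its highest step at the start, and the covered share was below that of the first step in all later steps to 50 kb.

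In the last step, from 45 to 50 kb, the mean covered share was 0.611% and 1.13% after AGO2 KD, 3.01% and 0.439% after LaminB KD, and 1.12% and 1.75% in mock. These values were above those from 20 to 25 kb in all 6 libraries. Because members start at 50.283 kb, this step lies near the end of the shortest ones, and it also holds internal starts and starts of other genes. In the 40 members with a single start group that was occupied in all 6 libraries, the first step had 5.42% and 6.31% after AGO2 KD, 11.1% and 4.45% after LaminB KD, and 6.08% and 7.64% in mock. From 10 to 15 kb those 40 genes had no coverage in either AGO2 KD library, 0.467% and 0 in LaminB KD, and 0 and 0.342% in mock.

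**Figure D2:**
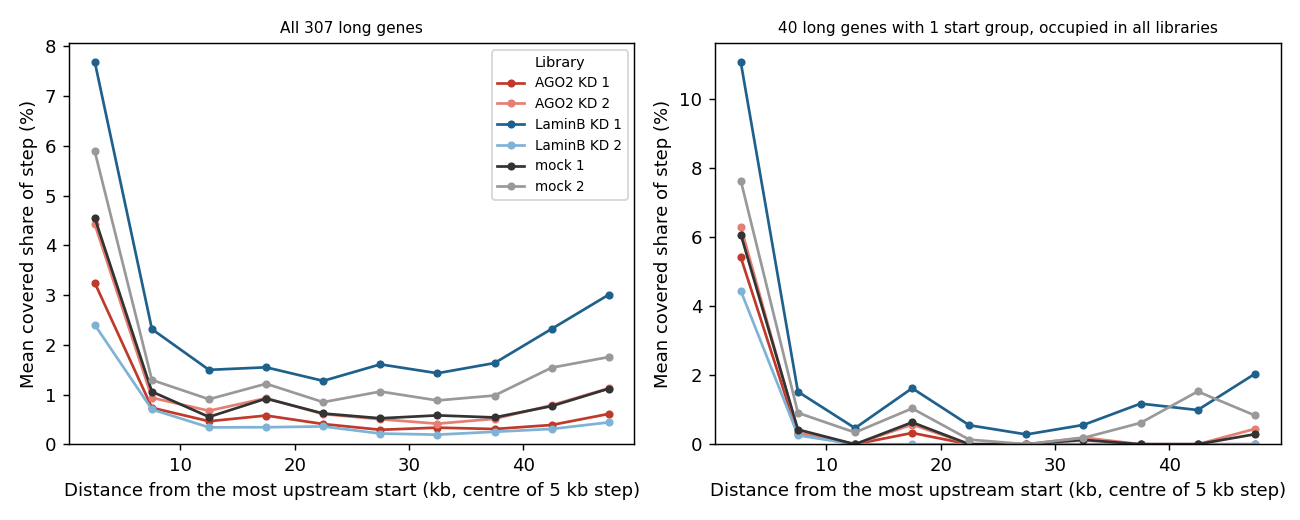
Mean covered share (%) of successive 5 kb steps against distance from the most upstream start (kb), 1 line per library, for all 307 long genes (left) and for the 40 with 1 start group and a peak there in all libraries (right). In both panels the first step is the highest, between 2.40% and 7.69% on the left and between 4.45% and 11.1% on the right, and the LaminB KD libraries form the upper and lower edge of the first step.

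The first 5 kb of long genes was covered less than that of the 1670 genes of 10 kb to under 50 kb. Those genes of middle length had 6.53% and 8.81% after AGO2 KD, 15.7% and 4.99% after LaminB KD, and 8.98% and 11.5% in mock. Long genes lay lower by 4.71 ± 1.90 points on average (SD, n = 6; exact two-sided sign-flip permutation test, p = 0.03125, lower in 6 of 6 libraries). Over the whole gene, the mean covered share of long genes was 0.726% and 1.13% after AGO2 KD, 2.69% and 0.513% after LaminB KD, and 1.16% and 1.73% in mock. Shorter genes had 11.3% and 16.8% after AGO2 KD, 30.6% and 8.61% after LaminB KD, and 17.1% and 21.8% in mock, where a peak of one size fills more of a shorter gene. In bp, long genes with a peak had a median of 433.5 and 573 bp under peaks in AGO2 KD, 1050 and 378.5 bp in LaminB KD, and 557 and 785 bp in mock. Shorter genes with a peak had 564 and 865 bp after AGO2 KD, 1818 and 468.5 bp after LaminB KD, and 842 and 1159 bp in mock.

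Peaks within long genes fell into 3 classes by position. At an own start of a long gene lay 251 and 274 peaks after AGO2 KD, 333 and 234 after LaminB KD, and 278 and 301 in mock. At a start of another gene inside or at the edge of the long gene lay 39 and 44 peaks after AGO2 KD, 68 and 41 after LaminB KD, and 47 and 59 in mock. Other genes started within 248 of the 307 members, with a median of 2 such genes. Farther than 250 bp from every annotated start lay 73 and 157 peaks after AGO2 KD, 430 and 61 after LaminB KD, and 151 and 247 in mock. The number of peaks at own starts thus ranged from 234 to 333 over libraries, and the number away from starts from 61 to 430.

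**Figure D3:**
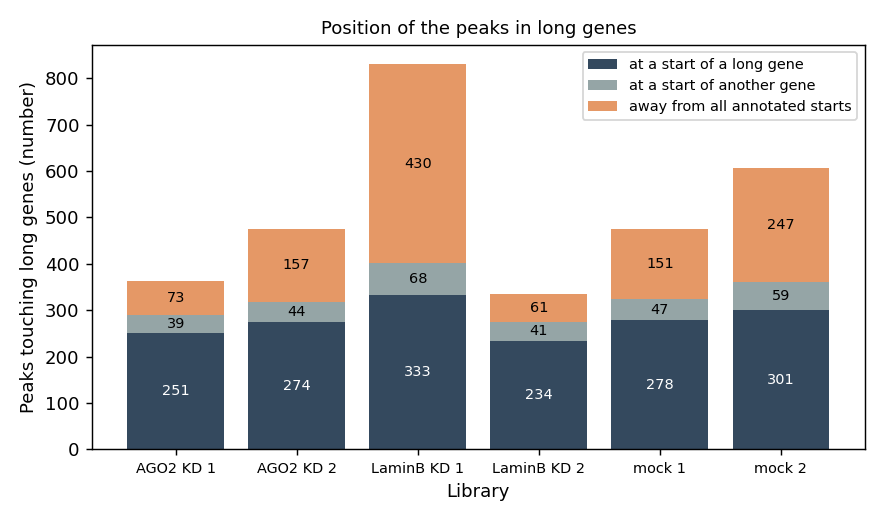
Number of peaks touching long genes in each library, divided into peaks at a start of the long gene, at a start of another gene, and away from all annotated starts. The upper part of the bars varies most, from 61 peaks in LaminB KD replicate 2 to 430 in LaminB KD replicate 1.

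Of the peaks away from starts, between 63.7% and 73.8% touched no exon of a long gene, and between 6.56% and 10.6% overlapped a gene that is not a member. The exonic share of a long gene had a median of 10.1%, against 69.9% in shorter genes. Peaks away from starts had a median fold of 3.23 and 2.82 after AGO2 KD, 2.15 and 3.23 after LaminB KD, and 2.71 and 2.54 in mock. In each library this was below the median fold of peaks at starts of long genes. In members with a start peak, the farthest covered base lay at a median of 17.7 and 22.3 kb from the most upstream start in AGO2 KD, 45.1 and 9.73 kb in LaminB KD, and 22.6 and 32.7 kb in mock.

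Most long genes were sparsely covered, and a few were covered over a large part. More than 10% of the gene lay under peaks in 2 and 6 members in AGO2 KD, in 21 and 0 in LaminB KD, and in 6 and 10 in mock. The gene with the highest mean covered share over the mock libraries was pnt (FBgn0003118, chr3R:23290231-23346167, 55.937 kb), which encodes an ETS transcription factor downstream of the EGF receptor. Its covered share was 15.2% and 23.4% after AGO2 KD, 38.2% and 6.02% after LaminB KD, and 21.2% and 31.02% in mock. These lay in 8 and 10 separate peaks in AGO2 KD, 16 and 7 in LaminB KD, and 10 and 15 in mock. All 3 of its start groups were occupied in all 6 libraries, and a wide stretch near its most downstream start, at 50.93 kb, carried 4441 and 5104 bp peaks in AGO2 KD, a 6135 bp peak in LaminB KD replicate 1, and 5066 and 5491 bp peaks in mock. In LaminB KD replicate 2 the same stretch held separate peaks of 938 and 318 bp. In LaminB KD replicate 2 and mock replicate 1 the next gene, ush, had the higher covered share.

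Second by that mean was ush (FBgn0003963, chr2L:476220-540560, 64.341 kb), encodes a zinc finger partner of GATA factors that acts in blood cell development. Its covered share was 13.1% and 18.2% after AGO2 KD, 35.7% and 8.28% after LaminB KD, and 22.2% and 26.9% in mock. Both AGO2 KD libraries lay below both mock libraries, and the LaminB KD libraries lay on either side. The most upstream start of ush had a peak only in LaminB KD replicate 1, while the GAGAG-rich start printed above, shared with lncRNA:CR46258, was occupied in all 6 libraries. A wide peak in the first 6 kb, which reached to within 250 bp of the start of the gene cbt at 3.468 kb or past it, measured 4729 and 4683 bp after AGO2 KD, 6474 and 2714 bp after LaminB KD, and 4870 and 4766 bp in mock. Part of the coverage of ush therefore lay at a start of another gene.

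Tlk (FBgn0283657, chrX:3720007-3789770), which encodes the Tousled-like kinase of chromatin assembly, had 8 start groups. Its covered share was 9.66% and 17.6% after AGO2 KD, 25.4% and 5.21% after LaminB KD, and 16.4% and 22.2% in mock. Its most upstream start, printed above, lay under a peak in 4 libraries. In AGO2 KD replicate 1 and LaminB KD replicate 2 the peak ended within 250 bp upstream of that start, outside the gene, and is not drawn on the map of peaks along Tlk. The groups overlapped in both comparisons. Smr (FBgn0265523, chrX:12684203-12742618), a corepressor of nuclear receptors, had a single start group but a broad distal peak. Its covered share was 7.21% and 14.5% after AGO2 KD, 26.1% and 4.89% after LaminB KD, and 14.7% and 20.7% in mock. A peak more than 49 kb from the start measured 2919 and 4364 bp after AGO2 KD, 7056 and 1456 bp after LaminB KD, and 6079 and 8290 bp in mock, wider than the peak of 363 to 561 bp found at its start in the 5 libraries that had one.

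Kuz (kuz, FBgn0259984, chr2L:13550139-13639411), the metalloprotease that cleaves Notch, also had a single start group. Its covered share was 1.66% and 5.39% after AGO2 KD, 13.6% and 1.13% after LaminB KD, and 6.50% and 9.31% in mock. It had 4 and 7 peaks after AGO2 KD, 17 and 2 after LaminB KD, and 7 and 11 in mock. Its peak at about 65 kb recurred in all 6 libraries, at 821 and 860 bp after AGO2 KD, 1023 and 798 bp after LaminB KD, and 845 and 968 bp in mock. No annotated start lies within 250 bp of that peak, and its width varied less than the covered share of the gene.

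**Figure D4:**
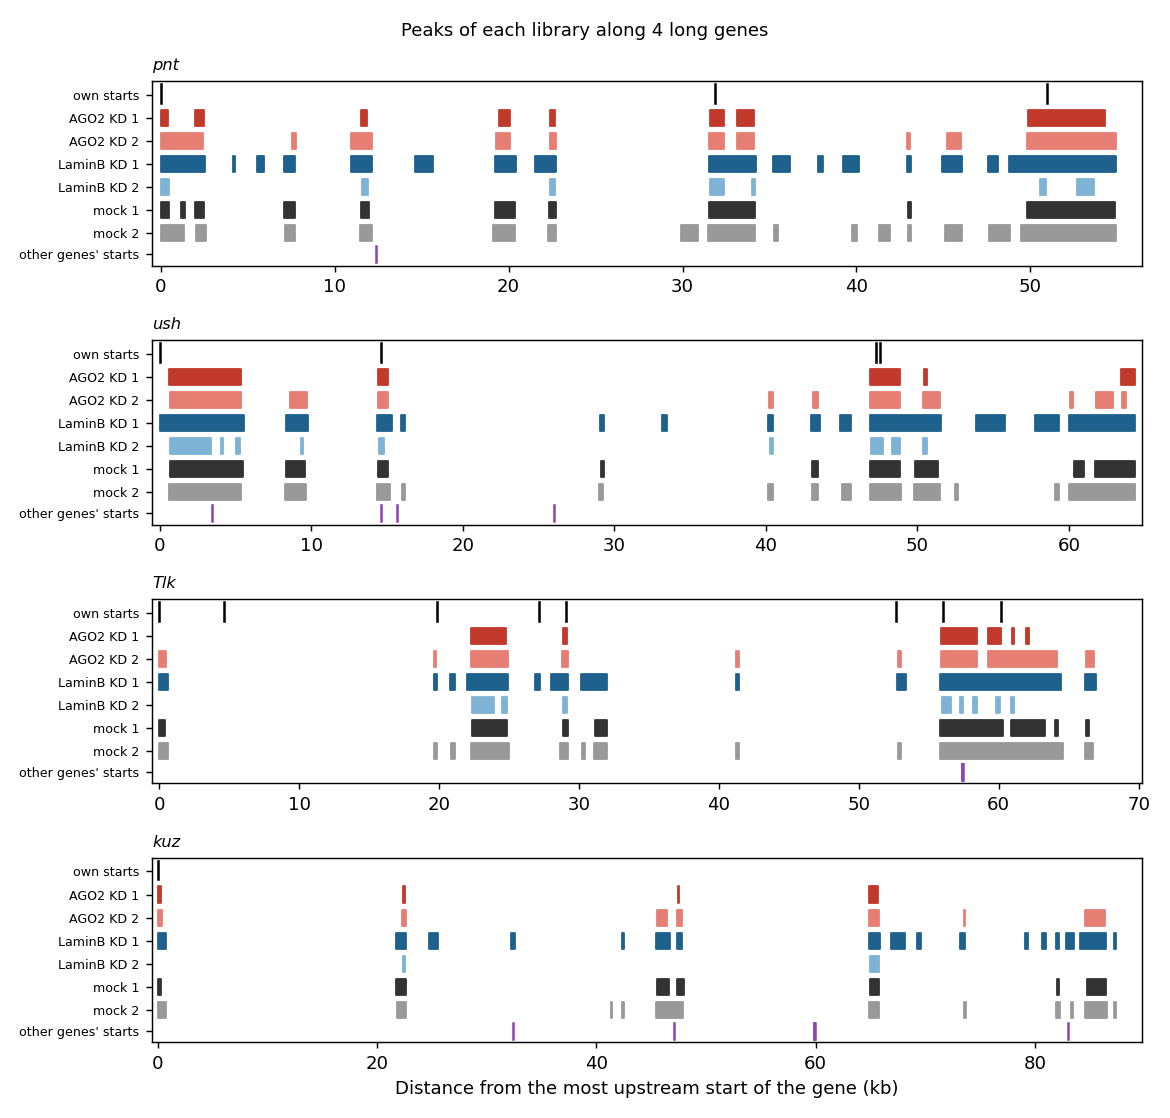
Peaks of each library (bars) along pnt, ush, Tlk and kuz against distance from the most upstream start (kb), with annotated starts of the gene above and of other genes below. Peaks recur at the same places across libraries, and LaminB KD replicate 1 adds peaks between them, 16 in pnt, 13 in ush and 17 in kuz in all. Mock replicate 2 holds many of these added peaks too, with 13 peaks in ush and 11 in kuz in all.

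Among the other members with high coverage in mock, Pdp1, a bZIP factor of the circadian clock, had covered shares of 7.29% and 11.9% after AGO2 KD, 23.7% and 4.99% after LaminB KD, and 13.4% and 19.1% in mock. The BTB zinc finger gene lola had 8.94% and 12.5% after AGO2 KD, 25.9% and 4.81% after LaminB KD, and 12.2% and 15.4% in mock. The growth regulator bun, a TSC-22 homolog, had 4.15% and 5.54% after AGO2 KD, 8.98% and 2.22% after LaminB KD, and 6.87% and 8.82% in mock. Of these, Pdp1 and bun had both AGO2 KD libraries below both mock libraries, and lola did not.

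**Figure D5:**
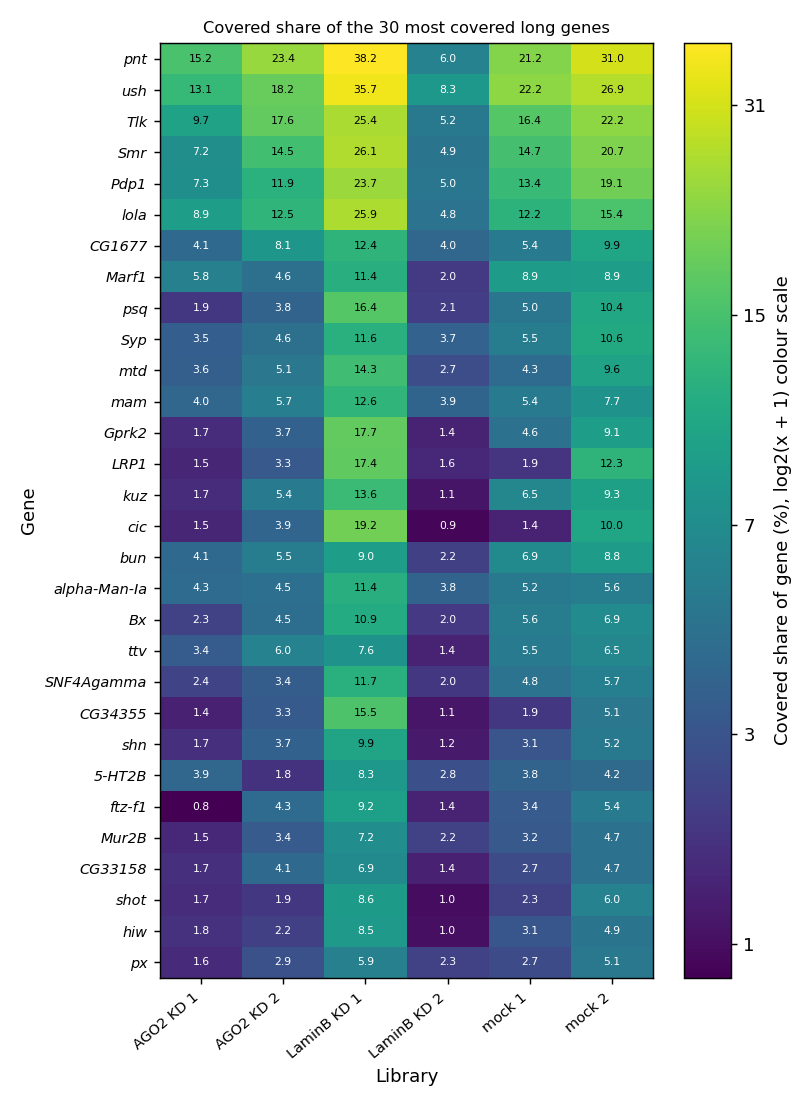
Covered share (%, printed in each cell and coloured on a log2(x + 1) scale) of the 30 long genes with the largest mean over the 6 libraries, 1 column per library. LaminB KD replicate 1 has the highest value in all 30 genes, and LaminB KD replicate 2 or an AGO2 KD library the lowest.

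The long genes were then grouped by what they encode, from lists of gene classes of which 139 members were on at least 1 and 3 were on 2. Pol II S5 at a start in all 6 libraries was found in 15 of 22 developmental transcription factors, 18 of 25 signalling enzymes and receptors, 10 of 14 RNA-binding proteins and 6 of 7 ecdysone response genes. It was found in 19 of 40 neuronal adhesion and recognition proteins, 4 of 9 cytoskeleton and muscle proteins, 3 of 6 hemocyte and matrix genes, and 2 of 19 ion channels and neurotransmitter receptors. Among the 168 members on no list it was found in 86, and among all members in 160 of 307, against 47.3% of shorter genes. No start peak in any library was found in 14 of the 19 channels and receptors, against 95 of all 307 members (30.9%) and 34.7% of shorter genes. It was found in 13 of the 40 neuronal adhesion proteins, 3 of the 9 cytoskeleton proteins, 4 of the 22 developmental transcription factors, 1 of the 25 signalling genes and 1 of the 14 RNA-binding proteins. These counts are descriptions of 6 libraries of 1 cell line and were not tested.

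Of the 11 channels and receptors with a peak, 6 had none at a start. 5-HT2B, a serotonin receptor, had 1 peak in each library and none at its start. It covered 3.95% and 1.82% of the gene in AGO2 KD, 8.27% and 2.81% in LaminB KD, and 3.78% and 4.20% in mock. The peak lay between 5.77 and 10.0 kb from the start in all 6 libraries, and no annotated start of another gene lies under it. The acetylcholine receptor subunit nAChRalpha4 likewise had 1 peak in each library and no start peak, with 0.578% and 1.75% after AGO2 KD, 2.31% and 0.619% after LaminB KD, and 1.28% and 2.06% in mock.

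The homeotic genes Antp and Ubx, on the transcription factor list, had no peak in any library. The ecdysone-induced gene Eip93F also had none, while the other 6 ecdysone response genes had start peaks in all libraries. One of those 6, Eip63E, encodes a cyclin-dependent kinase and not a transcription factor. These 4 genes were chosen for mention with their values in view. The nuclear receptor ftz-f1 had covered shares of 0.791% and 4.30% after AGO2 KD, 9.24% and 1.42% after LaminB KD, and 3.35% and 5.44% in mock. Eip74EF, an ETS factor, had 1.28% and 2.28% after AGO2 KD, 6.05% and 1.09% after LaminB KD, and 1.29% and 2.19% in mock. The gene br had 0.309% and 1.18% after AGO2 KD, 7.28% and 0.300% after LaminB KD, and 0.948% and 3.17% in mock. The groups overlapped for all 3 genes in both comparisons.

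Syp led the RNA-binding proteins, with 3.52% and 4.61% after AGO2 KD, 11.6% and 3.74% after LaminB KD, and 5.52% and 10.6% in mock. Of that list, Msp300 encodes a nesprin that links nuclei to the cytoskeleton and is also on the cytoskeleton list. The KH-domain gene mub had 1.68% and 1.61% after AGO2 KD, 3.58% and 0.532% after LaminB KD, and 2.29% and 2.42% in mock. The Musashi gene msi had 0.710% and 1.18% after AGO2 KD, 2.61% and 0.514% after LaminB KD, and 1.09% and 1.55% in mock. Both AGO2 KD libraries were below both mock libraries for Syp and mub but not for msi.

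The spectraplakin gene shot had 1.66% and 1.94% after AGO2 KD, 8.57% and 0.991% after LaminB KD, and 2.27% and 6.03% in mock. Its peaks away from starts numbered 0 and 0 after AGO2 KD, 10 and 0 after LaminB KD, and 1 and 7 in mock, so that they appeared in the 3 lists that covered the most Mb. Msp300 had 0.628% and 0.766% after AGO2 KD, 1.46% and 0.508% after LaminB KD, and 1.04% and 1.18% in mock, and sif, a Rac exchange factor gene, had 0.500% and 0.509% after AGO2 KD, 1.38% and 0.189% after LaminB KD, and 0.996% and 0.936% in mock. A like pattern to shot was seen for Ten-m, a teneurin of synapses and muscle, which had 0.254% and 0.285% after AGO2 KD, 3.30% and 0.179% after LaminB KD, and 0.298% and 0.688% in mock. Sli (sli), the ligand of Robo receptors, had 0.393% and 0.435% after AGO2 KD, 4.64% and 0.346% after LaminB KD, and 0.447% and 0.540% in mock. DIP-alpha, an immunoglobulin protein of synaptic partner choice, had 0.435% and 0.919% after AGO2 KD, 2.28% and 0 after LaminB KD, and 0.824% and 1.10% in mock. Ten-m and sli had 7 and 2 peaks away from starts in LaminB KD replicate 1, and 0 in LaminB KD replicate 2.

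In the hemocyte and matrix list, 3 of 6 genes had a start peak in all 6 libraries, against 52.1% of all members, which is near that share, and dpy, which encodes a giant matrix protein, had no peak. The laminin alpha chain gene wb had 0.481% and 0.530% after AGO2 KD, 0.884% and 0.498% after LaminB KD, and 0.658% and 0.691% in mock. The matrix metalloprotease gene Mmp2 had 0.125% and 0.116% after AGO2 KD, 1.51% and 0 after LaminB KD, and 0.430% and 0.561% in mock. Peaks show where Pol II sits and not how much RNA is made, so cell identity was not tested further.

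The very longest genes were mostly without a start peak. Of the 10 members of 200 kb or more, 2 and 2 had one in AGO2 KD, 4 and 2 in LaminB KD, and 2 and 3 in mock. Of the 73 members of 100 to under 200 kb, 65.8% and 71.2% had one in AGO2 KD, 80.8% and 61.6% in LaminB KD, and 71.2% and 76.7% in mock. For the 69 members of 75 to under 100 kb the shares were 56.5% and 62.3% in AGO2 KD. They were 68.1% and 53.6% in LaminB KD, and 63.8% and 65.2% in mock. For the 155 members of 50 to under 75 kb the shares were 56.1% and 60.6% in AGO2 KD. They were 65.8% and 54.8% in LaminB KD, and 60.0% and 61.9% in mock. Myo81F, a myosin heavy chain gene of 1965.857 kb near the centromere of 3R, had 1 peak in each library except LaminB KD replicate 2, where it had 0, and none at its start. The next longest with peaks were lovit (434.041 kb), with 0.0984% and 0.0376% after AGO2 KD, 0.160% and 0 after LaminB KD, and 0.0841% and 0.162% in mock, and CG17684 (396.036 kb), with 0.184% and 0.339% after AGO2 KD, 0.809% and 0.159% after LaminB KD, and 0.372% and 0.615% in mock, both without a start peak. Pzl, a Piezo-like channel gene of 709.421 kb, had no peak in any library. The adhesion gene kirre (394.149 kb) had a start peak in all 6 libraries, with 0.155% and 0.255% of the gene covered in AGO2 KD, 0.882% and 0.106% in LaminB KD, and 0.386% and 0.373% in mock.

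In 32 members peaks were found but none lay at a start in any library. For 14 of these, another gene lay under a peak, and for 18 none did. CG32373 is one of the 14, and its peaks overlapped 4 other genes. The piRNA factor AGO3, chosen for mention with its values in view, is one of the 18, with peaks in 4 of 6 libraries.

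AGO2 KD was compared with mock to see whether long genes carried more or less Pol II S5. The mean covered share over all members was 0.930 ± 0.289% in AGO2 KD, against 1.44 ± 0.405% in mock (SD, n = 2 each), which differ by -0.511 points (p = 0.333 by an exact two-sided permutation test). Both AGO2 KD libraries lay below both mock libraries. The labels do not say that replicates came from separate cultures, so p-values measure only the spread between these libraries, and 2 against 2 libraries cannot give a p below 0.333. In a bulk ChIP, fewer cells with Pol II on a gene and less Pol II per cell cannot be told apart. When each library was cut to the same covered length the difference was -0.108 points. It was -0.798 points without mock replicate 1 and -0.225 points without mock replicate 2, and -0.307 points without AGO2 KD replicate 1. As deposited, the lists covered 5.57 and 8.01 Mb in AGO2 KD, against 8.27 and 10.5 Mb in mock.

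Both AGO2 KD libraries also lay below both mock libraries in the first 5 kb and in the part beyond 20 kb. The covered share of the first 5 kb was 3.83 ± 0.832% in AGO2 KD, against 5.22 ± 0.946% in mock (SD, n = 2 each; exact permutation p = 0.333). Beyond 20 kb from the most upstream start it was 0.516% and 0.897% in AGO2 KD, against 0.921% and 1.50% in mock (exact permutation p = 0.333, n = 2 each). The share of long genes with an occupied start was 59.8 ± 3.45% in AGO2 KD, against 63.7 ± 2.07% in mock (SD, n = 2 each; exact permutation p = 0.667). Long genes had 1.39 ± 0.269 peaks each in AGO2 KD, against 1.80 ± 0.313 in mock (SD, n = 2 each; exact permutation p = 0.667). Of the peaks in long genes, 20.1% and 33.1% lay away from starts in AGO2 KD, against 31.7% and 40.7% in mock (exact permutation p = 0.667, n = 2 each). At equal covered length the difference was -0.440 points for the first 5 kb, against -1.39 points as deposited, and -0.0963 points beyond 20 kb, against -0.505 points as deposited. At that length the differences were 0.977 points for occupied starts, 0.0326 for peaks per gene and 0.232 points for peaks away from starts, the opposite signs.

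Long genes were also set against shorter genes of the same library. The covered share of long genes divided by that of shorter genes was 0.0644 and 0.0676 in AGO2 KD, against 0.0676 and 0.0793 in mock, a difference of -0.00751 (exact two-sided permutation test, p = 0.333, n = 2 each). With the upper 50% of peaks by score it was 0.00179, the opposite sign, with equal numbers of peaks -0.000878, and at equal covered length -0.0151. With 1 library left out it lay between -0.0134, without mock replicate 1, and -0.00167, without mock replicate 2. Both AGO2 KD libraries lay below both mock libraries in 117 of the 307 members (38.1%), where 31.5% of all 7428 protein-coding genes of 2 kb or more did so. Of the genes with a peak in any library, it was 117 of 244 long genes (48.0%) and 2224 of 4928 shorter genes (45.1%). The share among long genes is thus near the background and is not a result about long genes. Without AGO2 KD replicate 2 the count was 196, and without mock replicate 1 it was 210. With 1 library left out the rule is easier to meet, and the share over all genes was not computed in these settings. Both AGO2 KD libraries lay above both mock libraries in 1 member, against 0.363% of all genes.

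By class, AGO2 KD was below mock in 7 of 22 developmental transcription factors, 14 of 25 signalling genes, 9 of 14 RNA-binding proteins, 15 of 40 neuronal adhesion proteins, 4 of 9 cytoskeleton proteins, 4 of 6 hemocyte and matrix genes, 2 of 7 ecdysone response genes and 2 of 19 channels and receptors. Over all members it was 117 of 307, against 31.5% of all genes and 45.1% of the shorter genes with a peak, and no difference between classes was tested. The median covered share over all members was 0.293% and 0.353% in AGO2 KD, against 0.380% and 0.540% in mock. Of the 8 lists, 2 had both AGO2 KD medians below both mock medians. For the RNA-binding proteins the medians were 0.469% and 0.570% in AGO2 KD, against 0.578% and 0.903% in mock. For the hemocyte and matrix genes they were 0.168% and 0.287% in AGO2 KD, against 0.378% and 0.445% in mock. In 5 lists the medians of AGO2 KD and mock overlapped. They were 0.494% and 0.587% in AGO2 KD, against 0.586% and 0.878% in mock, for the signalling genes, and 0.421% and 1.23% in AGO2 KD, against 0.788% and 1.57% in mock, for the developmental transcription factors. The ecdysone response genes had 0.791% and 1.43% in AGO2 KD, against 1.39% and 2.52% in mock, and the neuronal adhesion proteins 0.0521% and 0.129% in AGO2 KD, against 0.111% and 0.171% in mock. The cytoskeleton proteins had 0.439% and 0.457% in AGO2 KD, against 0.441% and 0.593% in mock. The channels and receptors had a median of 0 in each of these libraries.

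The widest gap between the AGO2 KD and mock libraries was at ush, whose values are given above. The mean was 15.6 ± 3.57% for AGO2 KD libraries, against 24.6 ± 3.30% for mock libraries (SD, n = 2 each), a difference of -8.93 points, which was -5.11 points at equal covered length. Part of the gap lay at the end of ush, at 64.341 kb. Peaks ran past it from 61.701 to 70.474 kb and from 60.017 to 72.285 kb in mock. In AGO2 KD replicate 1 a peak ran from 63.431 to 66.369 kb, and in replicate 2 the last peak ended at 63.757 kb. Whether this coverage belongs to ush was not tested. Marf1, a regulator of oocyte meiosis and a binder of RNA, had 5.84% and 4.61% in AGO2 KD, against 8.86% and 8.95% in mock, a difference of -3.68 points, which was -0.511 points at equal covered length. SNF4Agamma had 2.38% and 3.44% in AGO2 KD, against 4.80% and 5.75% in mock, and its difference was -2.36 points as deposited and -2.06 points at equal covered length. CG32373 had 1.01% and 1.77% in AGO2 KD, against 3.48% and 3.64% in mock, and its difference was 0.333 points, the opposite sign, at equal covered length. The single member higher in AGO2 KD was CG3777, with 1.330% and 1.342% in AGO2 KD, against 1.329% and 1.292% in mock, so that its nearest libraries were almost equal. At equal covered length its difference was 0. These genes were picked for their gaps, and their values are descriptions.

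No long gene gained a start peak in both AGO2 KD libraries that was absent from both mock libraries, against 0.0269% of all genes. The opposite, a start peak in both mock and in neither AGO2 KD library, was found in 4 members (1.30%), against 1.59% of all genes, which is near the background. Among them were ed, an adhesion protein gene, hiw, a ubiquitin ligase gene of synapse growth, and CG43759. These genes had a start peak in LaminB KD replicate 1 and none in LaminB KD replicate 2.

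LaminB KD was compared with the same mock libraries. The mean covered share was 1.60 ± 1.54% in LaminB KD and 1.44 ± 0.405% in mock (SD, n = 2 each), which differ by 0.161 points (p = 1 by an exact two-sided permutation test). The mock values lay between the LaminB KD replicates, 2.69% and 0.513%, and no difference was detectable against that spread. The share with an occupied start was 62.1 ± 9.90% in LaminB KD and 63.7 ± 2.07% in mock, and the number of peaks per gene 1.94 ± 1.18 in LaminB KD and 1.80 ± 0.313 in mock (SD, n = 2 each; exact permutation p = 1 for both). Beyond 20 kb the covered share was 2.50% and 0.345% in LaminB KD, against 0.921% and 1.50% in mock (exact permutation p = 1, n = 2 each). The covered share of the first 5 kb differed by -0.175 points, the share of peaks away from starts by -1.26 points and the ratio to shorter genes by 0.000319, each with p = 1 in the exact permutation test (n = 2 each). Without LaminB KD replicate 1 the mean covered share differed by -0.929 points, and without replicate 2 by 1.25 points, so that its direction followed the replicate used.

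Few long genes separated LaminB KD from mock. Both LaminB KD libraries lay above both mock libraries in 1 member (0.326%), against 0.202% of all genes, and below in 3 members (0.977%), against 1.45%. Both shares are near the background. Without LaminB KD replicate 2 the member count above was 215, and without LaminB KD replicate 1 the count below was 213. Without mock replicate 1 the count below was 28, and without mock replicate 2 the count above was 9. Here too the rule is easier to meet with 1 library left out, and no share over all genes was computed. The member above was nAChRalpha1, an acetylcholine receptor subunit with no start peak, which had 2.15% and 1.30% in LaminB KD, against 0.583% and 1.25% in mock. Those below were CG40470, with 0.305% and 0 in LaminB KD, against 0.438% and 0.731% in mock, Dgk, a diacylglycerol kinase gene, with 0.317% and 0.268% in LaminB KD, against 0.377% and 0.565% in mock, and SLO2, a potassium channel gene, with 0.153% and 0.0749% in LaminB KD, against 0.176% and 0.162% in mock. The difference of CG40470 was 0.0863 points, the opposite sign, with the upper 50% of peaks by score. A start peak in both LaminB KD libraries and in neither mock library was found in no member, against 0% of all genes, and the opposite also in no member, against 0.135%.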

How the data were processed

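Pol II S5 was mapped by ChIP-seq in 6 libraries. Per the labels, the authors used cutadapt 1.10, Bowtie2, Picard 2.11.0 and MACS2 2.1.1.20160309 with dm6. Their methods state a mapping quality minimum of 20, removal of duplicates, and broad peaks called for each replicate separately against its input. The deposited lists hold, for each peak, a score, a fold ratio over background, and a p-value and q-value as −log10. Scores ranked peaks and fold was described. The p-values and q-values were not used. The authors' read-based differential test was not run, since peaks hold no counts.

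Coverage was computed in Python 3.11.15 with numpy 2.4.6 and scipy 1.17.1 on Ensembl BDGP6.54 genes (release 115), checked on simulated data. An overlap of 1 bp counted. Knockdowns were compared by exact permutation of 2 libraries against 2, long with shorter genes by sign flips over 6 libraries. Alternatives were equal peak numbers, equal covered length, the upper 50% of peaks, other length limits (40 and 75 kb), other start windows, peaks under 1000 bp apart merged, starts of other genes left out within 1500 bp, the replicate block and leaving out each library. Replicate numbers were taken from the labels. Inputs were not analysed here.

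The members and lists were chosen with earlier results of these data known. Named genes were the 10 most covered in mock, up to 5 with the widest gaps per comparison and direction, 3 per list by mean coverage, the 5 longest and the 5 with most peaks away from starts. The name of 1 gene is not reported here.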

Additional observations from a re-analysis of the deposited data

Results flagged for a closer look

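Chromosome Y was outside the comparisons. The library of LaminB KD replicate 1 held 2 peaks there and the other 5 libraries, both mock libraries included, held 0, although the labels give the line as female. Of the 6 protein-coding genes of 50 kb or more on Y, 1 held a peak, Ppr-Y, with a length of 248.273 kb. This was also the library with the largest list, and its part in the result was not tested.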

How the results depend on the processing

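For the measures over all members, the AGO2 KD comparison had 81 alternative values, of which 4 reversed, and the LaminB KD comparison 82, of which 28 reversed. Both totals include values from the replicate block, which cannot reverse a difference. Of the knockdown values with a test, 0 had a p under 0.05, which 2 libraries against 2 do not allow. At an equal number of peaks, the LaminB KD differences from mock were -0.0226 points for the covered share, -0.00814 for peaks per gene, -0.0190 points beyond 20 kb, 2.02 points for peaks away from starts and -0.00213 for the ratio to shorter genes, with 14 members lower, and 3 members were higher in AGO2 KD. At equal covered length, the AGO2 KD differences were 0.977 points for start peaks, 0.0326 for peaks per gene and 0.232 points for peaks away from starts, with 5 members higher. For LaminB KD they were -0.0469 points for the covered share, 1.30 for start peaks, -0.0545 beyond 20 kb, 5.82 for peaks away from starts and -0.00602 for the ratio, with 11 members higher and 17 lower, and CG32373 differed by 0.333 points in AGO2 KD. With the upper 50% of peaks, the AGO2 KD ratio differed by 0.00179, CG3777 by -0.459 points and, in LaminB KD, CG40470 by 0.0863, start peaks by 0.163 and peaks away from starts by 4.24 points, with 4 members higher. For 461 genes of 40 kb or more, 176 were lower in AGO2 KD and 3 higher and 6 lower in LaminB KD, whose ratio differed by -0.00135. For 152 genes of 75 kb or more, 60 were lower and 0 higher in AGO2 KD and 0 higher in LaminB KD, whose ratio differed by -0.000230. With a peak over the start base, peaks away from starts differed by 0.996 points in LaminB KD, and with starts of other genes left out 0 members were higher in AGO2 KD. At the most upstream start, long minus shorter genes was -9.44 points. The cause of these changes was not tested.

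Leaving out 1 library makes the rule for lower and higher members easier to meet, and no share over all genes was computed for it. It gave, for AGO2 KD, 118 to 210 members lower and 2 to 17 higher, with 196 lower without AGO2 KD replicate 2 and 210 without mock replicate 1. The AGO2 KD differences were -0.798 to -0.225 points for the covered share, -6.35 to -1.47 for start peaks, -0.627 to -0.184 for peaks per gene, -2.05 to -0.717 points for the first 5 kb, -0.795 to -0.214 beyond 20 kb, -16.1 to -3.15 for peaks away from starts and -0.0134 to -0.00167 for the ratio. For LaminB KD it gave 3 to 213 members lower and 1 to 215 higher, and differences of -0.929 to 1.25 points for the covered share, -8.63 to 5.37 for start peaks, -0.694 to 0.980 for peaks per gene, -2.82 to 2.47 points for the first 5 kb, -0.867 to 1.29 beyond 20 kb, -18.1 to 15.5 for peaks away from starts and -0.0139 to 0.0145 for the ratio. Long minus shorter genes was 3.64 to 4.44 points for start peaks and -676 to -515 bp for width. It was -5.13 to -4.06 points for the first 5 kb. Each of these had p = 0.0625, the smallest exact sign-flip p that 5 libraries allow. The covered share differed by -18.0 to -14.1 points, and no p is given for it, since the same peak fills more of a shorter gene.

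By arithmetic the replicate block cannot change a difference of means. For the covered share it stayed at -0.511 points in AGO2 KD and 0.161 points in LaminB KD. Only the test could change, with exact paired permutation p = 0.5 in AGO2 KD, the smallest that 2 pairs allow, and p = 1 in LaminB KD. Same-numbered libraries deviated together in AGO2 KD and mock (correlation 0.766 over the 307 members) and in opposite directions in LaminB KD and mock (-0.864). Replicate 1 had fewer peaks than replicate 2 in AGO2 KD (5532 and 6631) and in mock (6435 and 7162). In LaminB KD replicate 1 had more (8539 and 5108). These correlations therefore cannot tell pairing from list size. The labels give only a number, so whether they pair the libraries is not known. The crossed pairing, chosen after seeing the data, gave 0.161 points, as any pairing must. Depth is unknown from peak lists, and a member without a peak may still hold Pol II S5 below the calling threshold.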
